A study of Mus musculus with 16 samples.

Results

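CTCF occupancy was described at the starts of the RNAs that female mouse embryonic stem (ES) cells transcribed before differentiation (day 0). A start was the 5' end, by strand, of a row of the day 0 nuclear RNA-seq list that was at least 300 bp long. A row is an interval with a strand, a level in FPKM (fragments scaled to transcript length and library size) and the identifiers of the transcripts assembled there. Of 40674 rows, 35430 on chromosomes 1 to 19 and X were at least 300 bp long and gave a start each. Their other ends, the 3' ends, served for comparison. A start was called occupied when a CTCF ChIP peak came within 1 kb of it, with any of its bases, in both ChIP replicates.

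The series holds 16 samples, of which 3 gave these values: 2 CTCF ChIP-seq libraries and 1 nuclear RNA-seq library. All were from female ES cells grown attached to the dish with LIF, the cytokine that keeps them undifferentiated, and the labels name no transgene, other allele or treatment for them. The strain labels differed, being 129S1/CastEiJ x 129S1 for both ChIP libraries and CAST/Ei x 129/Sv/Jae for RNA-seq. ChIP replicate 1 was labelled as undifferentiated cells and replicate 2 as undifferentiating cells, at day 0 in each case. Nothing in the labels says that the ChIP replicates were separate cultures. RNA came from nuclei, was depleted of ribosomal RNA and kept its strand. Day 0 CLIP libraries, which list RNA crosslinked by UV and recovered on anti-FLAG beads, were used for comparison only and carry the strain label of the RNA-seq. Inputs and the CLIP libraries without UV were not analysed here.

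CTCF recognises a long DNA motif through its zinc fingers. It blocks enhancers from acting across insulators and halts the cohesin complex where it extrudes chromatin loops. In ES cells, as in other mammalian cells, it sits at domain boundaries, inside genes and at a share of promoters, where it is known to help bring distant enhancers near. The 5' end of a complete transcript marks its promoter, and transcription at mammalian promoters often starts in both directions. The 5' end of a row is that of an assembled interval, and whether it was a transcription start was not tested. Of the starts used here, 3803 had the 3' end of a row on the same strand within 1 kb upstream.

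The ChIP lists held 45377 peaks in replicate 1 and 76745 in replicate 2, with median widths of 1964 and 2013 bp. Chromatin had been sheared to fragments of about 1 to 2 kb, so that a window of 1 kb is near the resolution of the assay. The lists overlapped unevenly: 73.0% of replicate 1 peaks had a base in common with a replicate 2 peak, and 42.5% of replicate 2 peaks with a replicate 1 peak. Read depth is unknown for all lists. Proportions have exact Clopper-Pearson 95% intervals, which cover counting error only and treat neighbouring starts as independent. No test across samples was made, since an exact two-sided permutation test on 2 paired libraries cannot go below p = 0.5, and the main comparisons are given in each library. The files do not pair identifiers with gene names, and no annotation or sequence of the build the authors used (mm9) was used here, so starts are named by position and no cell type marker was looked up.

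Most starts had no CTCF peak nearby, and the longer list of replicate 2 reached more of them than that of replicate 1. A peak lay within 1 kb of 5892 starts (16.6%) in replicate 1 and of 10969 starts (31.0%) in replicate 2. Both replicates had one at 5340 starts, 15.1% of 35430 (95% interval 14.7% to 15.4%). Nearly all of the replicate 1 starts were therefore in both lists, and the replicate 2 list added 5629 starts of its own. At the 3' ends of the same rows, 4997 were occupied (14.1%). Over all rows, starts and 3' ends thus differed little: starts exceeded 3' ends by 0.87 percentage points in replicate 1, 2.68 in replicate 2 and 0.97 in both.

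Most rows were too short for their ends to be told apart in this assay. Of the 35430 rows, 22683 were under 4 kb and 12747 were at least 4 kb. In rows under 4 kb, where a peak of this width can reach the windows of both ends, 14.6% of starts were occupied, against 14.9% of 3' ends and 14.7% of row midpoints. In rows of at least 4 kb, 2032 starts were occupied, 15.9% (15.3% to 16.6%), against 1611 3' ends, 12.6% (12.1% to 13.2%), and 10.0% of midpoints. The order held in each library. Replicate 1 had peaks at 17.2% of these starts, 14.3% of their 3' ends and 11.4% of their midpoints. Replicate 2 had peaks at 33.1% of these starts, 25.6% of their 3' ends and 22.5% of their midpoints.

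Counting the midpoints of peaks by distance showed that peaks gathered at the starts of long rows and not at their 3' ends. Per 1000 rows of at least 4 kb, replicate 1 had 40.8 peak midpoints in the 500 bp before the start and 35.3 in the 500 bp after it. Between 5 and 10 kb away, it had 17.98 per 500 bp upstream and 15.5 downstream. Replicate 2 had 66.9 before and 66.3 after the start, with 32.2 upstream and 30.5 downstream at that distance. The mean of the central kb at starts was 2.27 times the mean of both flanks in replicate 1 and 2.12 times in replicate 2. At 3' ends the same ratio was 0.98 in each replicate.

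The long rows themselves held fewer peaks close to their ends than the DNA just outside them. From 1 to 4 kb inside the start, replicate 1 had 14.5 midpoints per 500 bp and 1000 rows, against 19.4 from 1 to 4 kb upstream, a ratio of 0.75. In replicate 2 the values were 28.5 downstream and 33.8 upstream, a ratio of 0.84. Around 3' ends the step ran the other way along the strand, which is again the lower side within the row. Downstream of the 3' end there were 20.6 midpoints in replicate 1 and 35.3 in replicate 2, against 16.5 and 30.1 upstream of it.

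**Figure D1:**
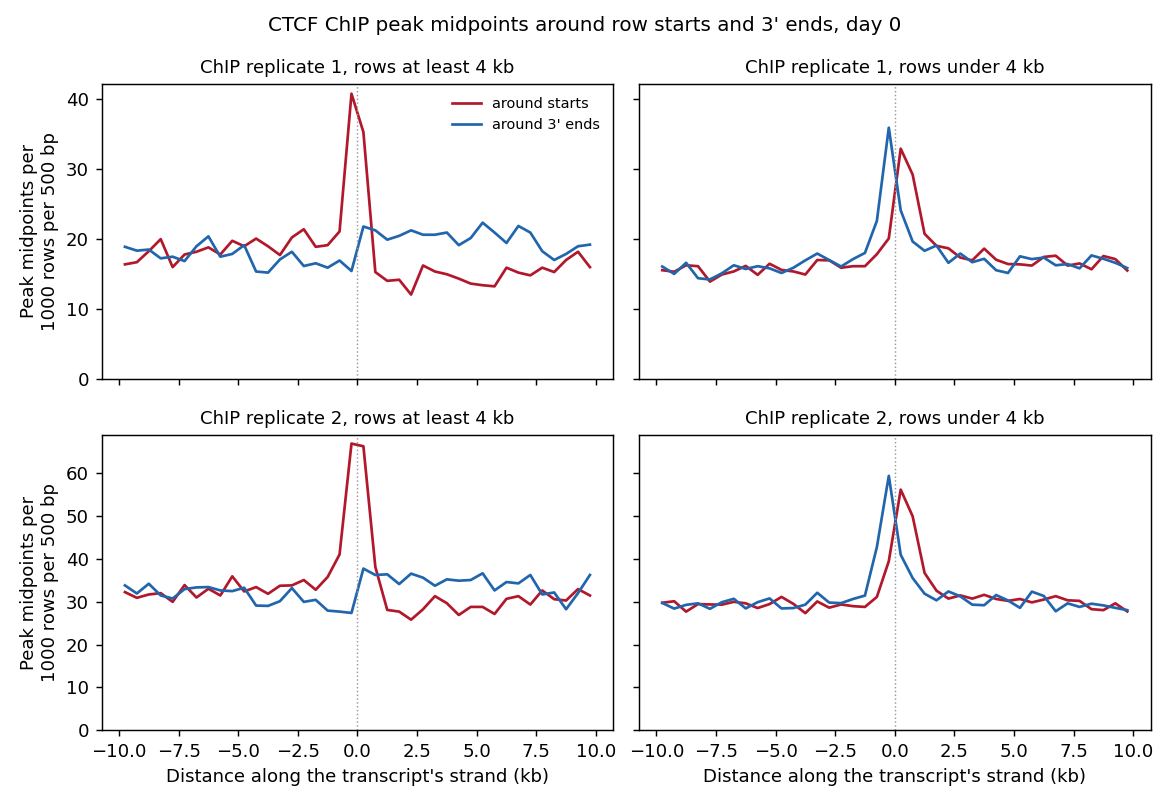
Midpoints of CTCF ChIP peaks per 500 bp and per 1000 rows (vertical axis) by distance in kb from the end of the row in the direction of transcription (horizontal axis), at starts (red) and 3' ends (blue) for each replicate and for long and short rows. At starts of rows of at least 4 kb the 2 central bins reach 40.8 and 35.3 in replicate 1 and 66.9 and 66.3 in replicate 2, while 3' ends of those rows show a step and no peak.

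Rows under 4 kb had a broader shape in which the excess lay over the row. In replicate 1 there were 32.9 midpoints per 1000 rows in the 500 bp after the start and 20.1 in the 500 bp before it. At their 3' ends the order was turned, with 24.1 after the end and 35.9 before it. Their central kb at starts was 1.65 times the flanks in replicate 1 and 1.62 times in replicate 2, against 1.86 and 1.70 times at 3' ends. For these rows the assay places CTCF over the transcribed interval and does not assign it to an end.

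An occupied start said little about the other end of the same row. Among rows of at least 4 kb, 281 were occupied at both ends, 1751 at the start alone and 1330 at the 3' end alone, and 9385 at neither. The 3' end was occupied in 13.8% (12.4% to 15.4%) of rows with an occupied start and in 12.4% (11.8% to 13.1%) of the others, and these intervals overlap. In rows with a single identifier the shares were 17.3% (13.8% to 21.2%) and 11.9% (10.7% to 13.1%), and the intervals do not overlap. In rows of at least 20 kb they were 10.5% and 10.6%.

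Rows naming several transcripts had occupied starts more often than rows naming a single one. Single-identifier rows numbered 25350 and pooled rows 10080. A pooled row holds several identifiers on 1 interval, no rows overlap on the same strand, and the start of a pooled row is therefore the outermost 5' end of its transcripts. Pooled rows made up 32.5% (31.2% to 33.7%) of rows with occupied starts and 27.7% (27.2% to 28.2%) of the others, a difference of 4.74 points, with 3.78 in replicate 1 and 5.54 in replicate 2. Within rows of at least 4 kb the pooled shares were 78.9% and 73.1%, a difference of 5.87 points.

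The excess of starts over 3' ends by the 1 kb window was found in pooled rows. In pooled rows of at least 4 kb, 17.0% (16.3% to 17.8%) of starts were occupied, against 12.7% (12.003% to 13.4%) of 3' ends. Replicate 1 had 18.3% against 14.3%, and replicate 2 had 34.8% against 26.3%. In single-identifier rows of that length, 12.9% (11.8% to 14.1%) of starts and 12.6% (11.4% to 13.7%) of 3' ends were occupied. There the replicates parted: replicate 1 had 14.2% against 14.1%, and replicate 2 had 28.2% against 23.4%. Over single-identifier rows of any length the difference was -0.34 points.

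Peak midpoints still gathered at the starts of long single-identifier rows, less than at those of pooled rows. The central kb was 1.54 times the flanks in replicate 1 and 1.76 times in replicate 2, against 1.07 and 0.93 times at the 3' ends of those rows. At starts of pooled rows of at least 4 kb it was 2.52 and 2.24 times the flanks, against 0.96 and 1.00 times at their 3' ends. By number of identifiers, the occupied share of starts in rows of at least 4 kb was 12.9% for 1, 17.2% for 2, 17.7% for 3 to 4, 16.0% for 5 to 8 and 15.5% for 9 or more. The step was thus between 1 and 2 identifiers, and the classes above it overlapped in their intervals.

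Row length went with occupancy differently in long and short rows. Over all rows, those with occupied starts had a median length of 1149 bp, against 1023 bp for the others, a log2 ratio of 0.17, with 0.13 in replicate 1 and 0.24 in replicate 2. Within rows of at least 4 kb the direction was turned, with a median of 20414 bp in rows with occupied starts and 24680 bp in the others (log2 ratio -0.27). In single-identifier rows of any length the medians were 695.5 and 697 bp, and in pooled rows of any length the log2 ratio was -0.35. Within classes of level the kinds of row parted. Single-identifier rows with occupied starts were longer than the others in all 5 classes, by log2 ratios of 0.04 to 0.68, while pooled rows had -0.57 to 0.03. The direction of the difference in length thus depended on which rows were set side by side.

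Among pooled rows of at least 4 kb the occupied share of starts was highest in those of 4 to 20 kb, at 20.2% (18.8% to 21.6%). The fewer pooled rows of 1 to 4 kb had 20.9% (17.6% to 24.5%), which overlaps it. The share was 15.6% from 20 to 50 kb and 14.8% (13.6% to 16.1%) at 50 kb and over. The 3' ends of the 3 length classes from 4 kb had 16.1%, 12.8% and 8.79%, so that the gap between ends was widest in the longest rows. In single-identifier rows of the same classes the starts had 14.5%, 9.74% and 9.98%, against 14.0%, 12.2% and 6.37% at 3' ends. Single-identifier rows of 20 to 50 kb were an exception to the order of the ends, with intervals of 7.58% to 12.3% at starts and 9.77% to 14.9% at 3' ends. The replicates parted there, since starts stood 2.74 points below 3' ends in replicate 1 (a difference of -2.74) and 0.91 points above them in replicate 2.

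**Figure D2:**
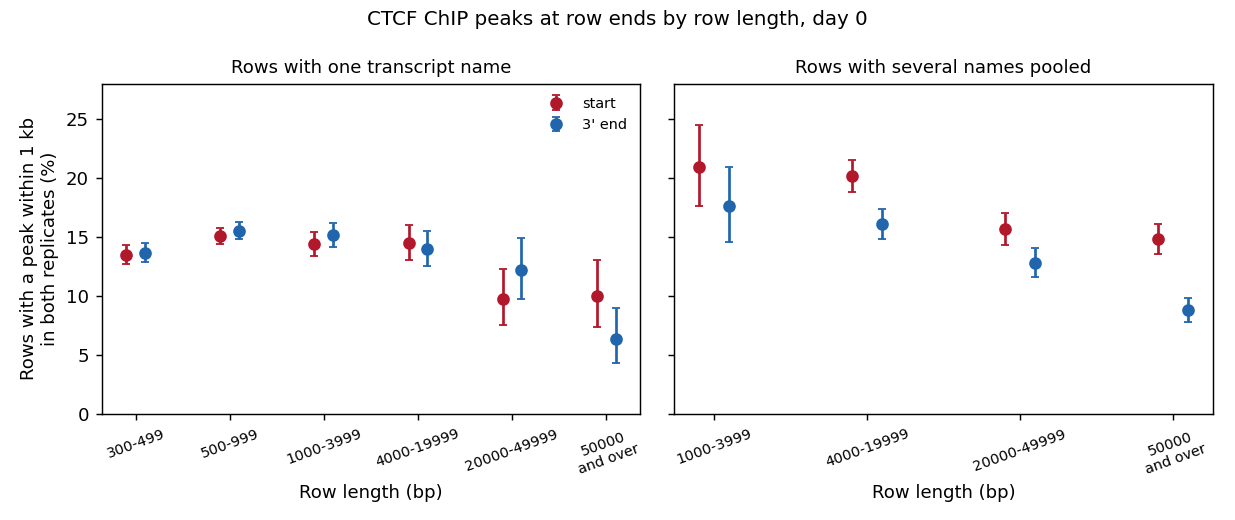
Share of row ends with a CTCF ChIP peak within 1 kb in both replicates, in percent (vertical axis), by row length in bp (horizontal axis), for starts (red) and 3' ends (blue) of single-identifier and pooled rows. Bars are exact 95% intervals, which cover counting error; in pooled rows of 50 kb and over, starts stand at 14.8% and 3' ends at 8.79%.

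The level of the RNA differed little with occupancy. Rows with occupied starts had a median of 7.19 FPKM (quartiles 4.03 and 11.8), against 6.63 FPKM (3.36 and 11.1) for the others, a log2 ratio of 0.12. Split by the peaks of replicate 1 alone the log2 ratio was 0.13, and by those of replicate 2 alone it was 0.17. Rows with no peak in either replicate had a median of 6.43 FPKM. The quartile ranges overlap almost fully, and only 1 RNA-seq library was listed, so the level of a row has no replicate.

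The difference varied with the kind and length of the row. In single-identifier rows of at least 4 kb the median was 1.18 FPKM with an occupied start and 0.91 FPKM without, a log2 ratio of 0.37, with 0.32 in replicate 1 and 0.69 in replicate 2. The sign of that ratio depended on the prefix of the identifier, as given below. In pooled rows of at least 4 kb the medians were 7.48 and 7.70 FPKM, a log2 ratio of -0.04. Pooled rows under 4 kb, of which 130 had an occupied start, had a log2 ratio of 0.34, with 0.37 in replicate 1 and 0.14 in replicate 2. Single-identifier rows of 50 kb and over had -0.02. Pooled rows carry the mean of their transcripts, so their level is not that of the transcript at the start. In 10 classes of length and kind of row, the log2 ratio of medians ran from -0.05 to 0.46 and was above 0 in 7.

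Over both kinds of row, occupancy was lowest at weakly transcribed starts and did not keep increasing with level. In rows of at least 4 kb, 12.4% (11.1% to 13.9%) of starts were occupied under 1 FPKM and 16.1% from 1 to 3. It was 17.4% (16.4% to 18.5%) from 3 to 10, 16.3% from 10 to 30 and 15.5% at 30 FPKM and over. The 3' ends of these classes had 11.5%, 14.6%, 13.3%, 11.7% and 10.8%. The gap between starts and 3' ends was thus narrowest under 1 FPKM, with 0.90, 1.49, 4.12, 4.57 and 4.74 points over the 5 classes. Replicate 1 had 0.76, 1.13, 3.62, 4.30 and 4.50 points. Replicate 2 had 3.99, 8.31, 8.69, 7.92 and 7.20 points, so that its gap was widest from 3 to 10 FPKM.

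By peaks in both replicates, the wider gap at higher levels was found in pooled and not in single-identifier rows. Among rows of at least 4 kb, pooled rows had gaps of 2.42, 2.08, 4.67, 4.94 and 5.03 points in the 5 classes of level. Single-identifier rows had 0.41, 0.63, 0.61, -1.37 and -6.90 points, the last from 29 rows. In replicate 1 pooled rows had 2.04, 1.74, 4.23, 4.64 and 4.77 points, and single-identifier rows 0.36, 0.25, -0.31, -1.37 and -6.90. In replicate 2 pooled rows had 5.58, 8.59, 9.19, 8.24 and 7.79 points, and single-identifier rows 3.49, 7.89, 5.53, 2.74 and -17.2. The gap in replicate 2 was thus wider from 1 to 10 FPKM than under 1 FPKM in both kinds of row. Pooled rows made up 538 of the 2228 long rows under 1 FPKM and 1194 of the 1223 at 30 FPKM and over. The occupied share of starts in the 5 classes was 14.9%, 17.2%, 17.9%, 16.5% and 15.7% in pooled rows. It was 11.7%, 14.4%, 14.3%, 13.7% and 10.3% in single-identifier rows.

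The gathering of peak midpoints at starts, over both kinds of row, was stronger at the highest levels than under 1 FPKM. In replicate 1 the central kb at starts was 1.77 times the flanks under 1 FPKM, and 1.96, 2.38, 2.56 and 2.58 times in the next 4 classes. In replicate 2 it was 1.86 times under 1 FPKM, and 1.89, 2.22, 2.14 and 2.40 times above. The 3' ends had 0.79 to 1.17 times in all 5 classes and both replicates. The part of the kind of row in this order was not tested.

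**Figure D3:**
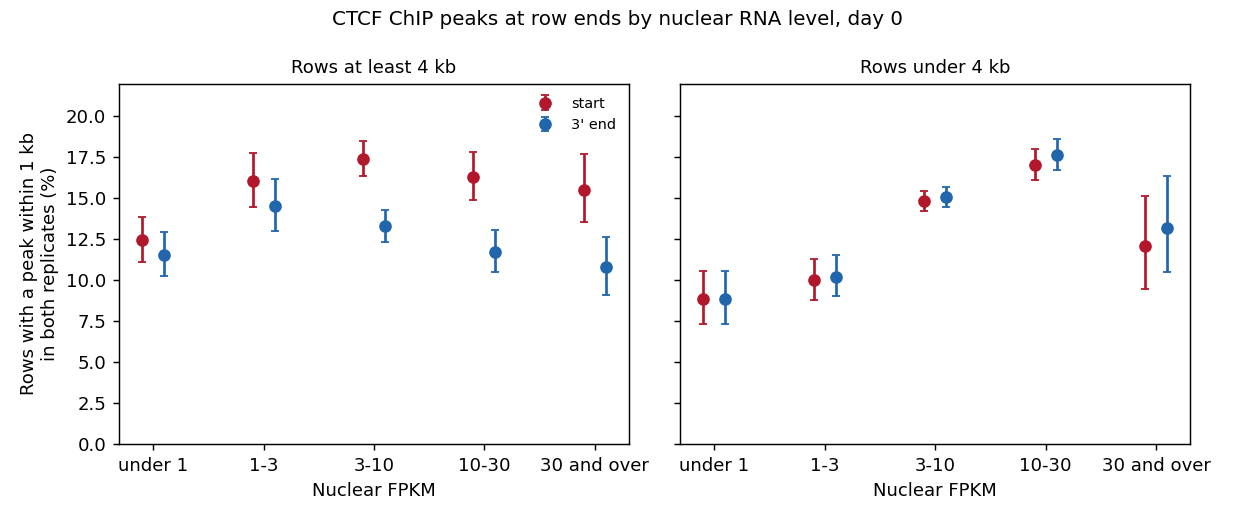
Share of row ends with a CTCF ChIP peak within 1 kb in both replicates, in percent (vertical axis), by nuclear RNA level in FPKM (horizontal axis), for starts (red) and 3' ends (blue) of long and short rows. Bars are exact 95% intervals, which cover counting error; at 30 FPKM and over in rows of at least 4 kb, starts stand at 15.5% and 3' ends at 10.8%.

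Rows under 4 kb had another profile over level, with occupied starts at 8.85%, 10.0%, 14.8%, 17.1% and 12.1% in the same 5 classes. Most of them carried assembly identifiers with the prefix CUFF alone, and the rest at least 1 with the prefix TCONS, whose meaning the labels and files leave unstated. Among single-identifier rows under 4 kb, CUFF-only rows had 10.0% (8.57% to 11.6%) of starts occupied from 1 to 3 FPKM and 17.1% (16.1% to 18.1%) from 10 to 30. TCONS rows had 9.22% and 11.8% (7.69% to 17.0%) in those classes. In long rows the central kb at starts stood 2.28 and 2.14 times over the flanks for TCONS rows in replicates 1 and 2, and 2.24 and 2.06 times for CUFF-only rows. In single-identifier rows of at least 4 kb, the log2 ratio of median FPKM by occupancy was 0.46 for TCONS rows. It was -0.11 for CUFF-only rows, of which 114 had an occupied start. By library, TCONS rows had 0.46 in replicate 1 and 0.72 in replicate 2, and CUFF-only rows had -0.13 and 0.14.

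Single rows chosen by a rule on score, level or length show what these classes hold. The 10 occupied starts of single-identifier rows with the highest peak scores in both lists lay in short rows, of 322 to 1435 bp, with 3.10 to 25.3 FPKM. The score is the authors' own value for a peak, and only its rank in its own list was used for the choice. At the top was a plus-strand row at chr8:73153604-73154097, with 25.3 FPKM and peak scores of 148 in replicate 1 and 133 in replicate 2. On chromosome 9 a plus-strand row at chr9:72379361-72379806 had 4.99 FPKM, and its start lay beside peaks scored 198 and 125. Of the 10, 7 were on chromosomes 6 or 8, and 2 pairs of rows shared their peaks.

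Highly transcribed rows were found with and without a CTCF peak within 1 kb of the start. Among single-identifier rows of at least 1 kb, the 10 occupied starts with the highest levels had 35.9 to 190 FPKM. The highest was the plus-strand row at chr10:80639376-80645252, with 190 FPKM and peak scores of 61.8 and 38.7. Both of these peaks ended upstream of the start, with midpoints at -2422 bp in replicate 1 and -2977 bp in replicate 2. Next came the minus-strand row at chr5:143664794-143668433, with 162 FPKM. The 10 highest with no peak in either replicate had 133 to 4562 FPKM. They included a plus-strand row at chr17:39979939-39985776 with 4562 FPKM and a minus-strand row at chr19:5795690-5802671 with 785 FPKM. Rows on opposite strands at chr9:3000002-3001528 and chr9:3000000-3001526 were also among them. Whether ChIP reads could be placed in the rows of this list was not tested, which limits what a missing peak means there. In each of these lists of 10, 6 starts had a same-strand CLIP peak within 1 kb in both CLIP replicates. Over rows of all levels that share was 6.18% with an occupied start and 8.17% for the others. Both lists were chosen for high level, and the part of level in these counts was not tested.

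The longest rows were transcribed at low levels whether or not their start was occupied. The 5 longest single-identifier rows with an occupied start ran from 464874 to 897271 bp, with 0.03 to 0.46 FPKM. The longest was on the plus strand at chr1:117581333-118478603. The 5 longest without an occupied start ran from 935704 to 1142994 bp, with 0.05 to 2.33 FPKM, and 2 of them lay on X, among them the longest of all, at chrX:83992581-85135574 on the minus strand. None of the 10 had an occupied 3' end.

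Peaks at starts were among the higher-scoring ones of each list. Within 1 kb of a start lay 9.39% of replicate 1 peaks and 10.3% of replicate 2 peaks. Their median score percentile within the list was 66.3 in replicate 1 and 60.1 in replicate 2, against 50.03 and 46.6 for peaks inside rows away from the ends and 45.7 and 49.3 for peaks outside rows. Peaks at 3' ends stood as high, at 66.3 and 61.6. Of replicate 1 peaks at starts, 90.6% were overlapped by a replicate 2 peak, against 76.6% inside rows and 67.4% outside rows. Of replicate 2 peaks at starts, 51.7% were overlapped by a replicate 1 peak, against 38.7% inside rows and 42.3% outside them. High score and overlap between lists therefore went with either end of a row.

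Occupied starts are not independent sites. The best peak of each of the 5340 occupied starts was 1 of 3768 peaks in replicate 1 and 1 of 3750 in replicate 2. In replicate 1, 54.8% of occupied starts shared their best peak with another start, and in replicate 2, 55.4% did, with at most 5 and 6 starts to a peak. The intervals given for shares of starts are narrower than that sharing warrants.

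Starts with an opposite-strand start close upstream were occupied more often than the rest in short rows. In long rows the 2 kinds of row went opposite ways in replicate 1 and the same way in replicate 2. A start on the opposite strand lay within 1 kb upstream in 6.01% (5.39% to 6.68%) of rows with occupied starts and in 5.59% (5.34% to 5.86%) of the others. In rows of at least 4 kb the shares were 7.28% (6.19% to 8.50%) and 8.14% (7.63% to 8.67%), in the other order and with overlapping intervals. Among long single-identifier rows, 14.8% of starts with such a neighbour were occupied, against 12.8% of those without, with overlapping intervals. Long pooled rows had 14.4% against 17.2%, and these intervals overlap too. By library, replicate 1 had 16.5% against 14.0% in the single-identifier rows and 15.2% against 18.6% in the pooled rows. In replicate 2 the values were 37.3% (31.1% to 43.8%) against 27.5% (25.9% to 29.1%), and 35.1% against 34.8%. In rows under 4 kb, 17.6% (15.3% to 20.1%) of starts with such a neighbour were occupied, against 14.4% (14.0% to 14.9%) of those without. Replicate 1 had 19.3% (16.9% to 21.9%) against 16.2% (15.7% to 16.7%) there, and replicate 2 had 36.8% (33.8% to 39.9%) against 29.4% (28.8% to 30.1%). In each library the intervals of these groups of short rows do not overlap. Starts close together on opposite strands can share a peak, so the separation is less sure than these intervals show, above all in replicate 1.

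CLIP peaks on RNA were slightly less frequent at starts that CTCF occupied on DNA. A same-strand CLIP peak lay within 1 kb of the start in both CLIP replicates for 6.18% (5.55% to 6.86%) of rows with occupied starts and for 8.17% (7.87% to 8.49%) of the others. CLIP replicate 1 alone had 10.7% and 12.7%, and CLIP replicate 2 had 16.3% and 19.6%. In rows of at least 4 kb the shares in both CLIP replicates were 4.23% (3.40% to 5.20%) and 5.56% (5.14% to 6.01%), and these intervals overlap. Over all lengths, a CLIP peak anywhere in the row was as frequent in both sets, in 25.9% and 25.5%. That equality joined rows of different length. Under 4 kb, 4.20% (3.54% to 4.94%) of rows with occupied starts and 5.30% (4.99% to 5.63%) of the others had a CLIP peak in the row. In pooled rows of at least 4 kb the shares were 72.2% (69.9% to 74.4%) and 76.4% (75.5% to 77.4%), and in single-identifier rows of that length 19.6% and 23.4%. Within these broad classes the share was thus lower with an occupied start over the whole row as well. Finer classes of length did not all keep that order, and the intervals overlap in each. Pooled rows had 53.9% and 58.7% from 4 to 20 kb, 80.2% and 81.6% from 20 to 50 kb, and 91.7% and 89.8% at 50 kb and over. Single-identifier rows had 17.0% and 19.8%, 28.1% and 27.5%, and 25.5% and 33.3% in those classes.

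Chromosome X had the lowest share of occupied starts of the 20 chromosomes, in each replicate and in both. On X, 119 of 1364 starts were occupied, 8.72% (7.28% to 10.3%), against 15.3% (14.9% to 15.7%) on the autosomes. By library, X had 10.6% in replicate 1 and 22.6% in replicate 2, against 16.9% and 31.3% on the autosomes. The 3' ends on X were also the least occupied, at 6.52%, against 14.4% on the autosomes, so the low share was not specific to starts. In rows of at least 4 kb the starts had 11.3% (8.56% to 14.6%) on X and 16.1% (15.5% to 16.8%) on autosomes, and the 3' ends 5.22% and 12.9%.

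The share of peaks that lay on X was close to its share of rows, while peaks per length of DNA were not compared. X held 3.97% of replicate 1 peaks and 3.86% of replicate 2 peaks, beside 3.85% of the rows. Its median level was 5.46 FPKM, against 6.76 FPKM on the autosomes, and the part of that difference in the shares was not tested. The median row lengths were 1102 bp on X and 1036 bp on the autosomes.

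At the other end of the order stood chromosome 6, with 19.5% of starts occupied (17.7% to 21.5%), followed by chromosome 7 with 18.8% and chromosome 8 with 18.6%. Chromosomes 6 and 8 held more peaks than their share of rows, which was 4.80% for each. Chromosome 6 had 9.21% of replicate 1 peaks and 7.71% of replicate 2 peaks, and chromosome 8 had 8.06% and 6.95%. Chromosome 7 went the other way, with 5.73% and 5.79% of peaks beside 7.25% of rows. The part of the number of peaks in the order of the chromosomes was not tested. Starts were above 3' ends on 17 of the 20 chromosomes over all rows and on 19 of 20 in rows of at least 4 kb. The excess of starts in long rows was therefore spread over the genome, with chromosome X on the same side as most.

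**Figure D4:**
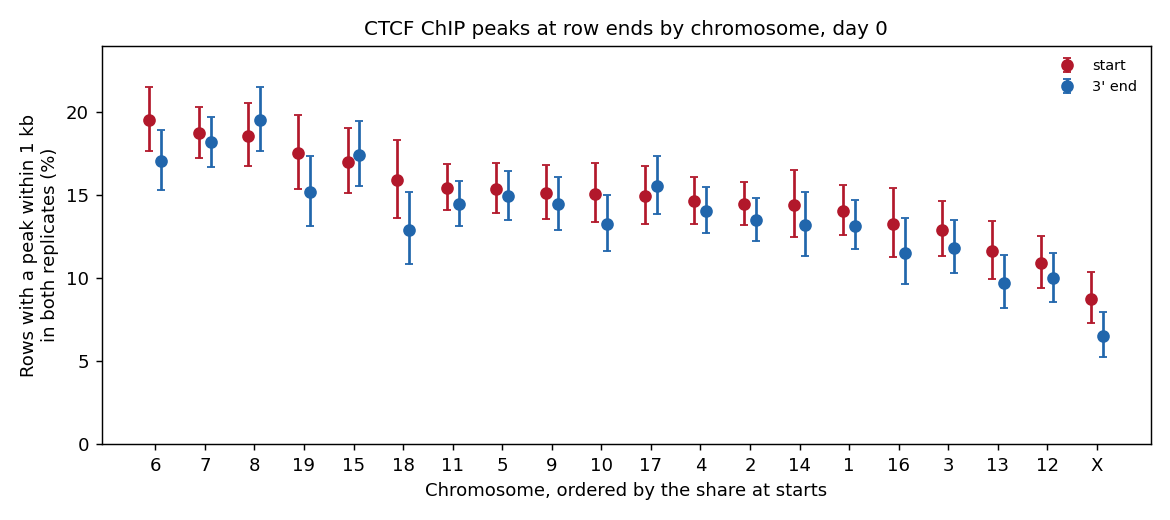
Share of starts (red) and 3' ends (blue) with a CTCF ChIP peak within 1 kb in both replicates, in percent, for each of the 20 chromosomes. Bars are exact 95% intervals, which cover counting error; X stands lowest at 8.72% of starts and 6.52% of 3' ends, and chromosome 6 has the highest share of starts, 19.5%.

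The limit of 1 kb did not fall at a step in level or pooled share, while the level differed across the limit of 300 bp. Taking the nearest peak of each replicate and the farther of both, 993 starts had it 500 to 1000 bp away, with a median of 6.63 FPKM and 30.4% pooled rows. Just outside, 946 starts had it 1000 to 1500 bp away, with 6.59 FPKM and 29.2% pooled rows. The 4347 starts with both peaks within 500 bp had 7.33 FPKM. Rows of 300 to 350 bp had 11.6% of starts occupied, against 13.3% in the 1464 rows of 250 to 300 bp that were left out. Their median levels were 9.74 FPKM and 13.0 FPKM. With rows of any length the log2 ratio of median FPKM was 0.052, against 0.12 from 300 bp.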

How the data were processed

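ChIP, CLIP and RNA-seq lists were used as deposited. The submitters' processing notes name build mm9 and, without role or order, Cufflinks 2.1.1, bedtools 2.17.0, SAMtools 0.1.18, TopHat2 2.0.8, Novoalign 3.00.03, cutadapt 1.0 and Trim Galore 0.3.3. No peak caller is named there or in the labels. Each deposited peak carries a score from the authors, of unstated scale. The level deposited for each row was read as FPKM, the unit of Cufflinks, although the file does not name it. In all 10083 pooled rows, the level times the number of identifiers was a whole multiple of 0.01 (within 0.001 of a step), as a mean over identifiers would be.

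Windows, overlaps (at least 1 bp), medians and intervals were computed in Python 3.11.15 with NumPy 2.4.6, pandas 2.3.3, SciPy 1.17.1 and matplotlib 3.10.9. The window step was tested on simulated data (12943 starts, 0 differences from an exhaustive search). Rows on chromosome Y (6) and under 300 bp (5238) were left out. Single-identifier rows were named by a rule: the 10 highest-scoring with an occupied start and at least 1 FPKM, the 10 highest in FPKM with and without peaks of at least 1 kb, and the 5 longest with and without. The starts, classes and lists were chosen with earlier results of these data known. Sequences and gene lists needed an mm9 reference and were not used here.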

Additional observations from a re-analysis of the deposited data

How the results depend on the processing

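Of 102 alternative values, 71 moved by less than the spread between the ChIP libraries, 24 moved by more and 7 turned their direction. Counting each distinct start once could not move a value, since all 35430 starts were distinct. For the occupied share the spread (standard deviation) was 10.1 points, so that values from 8.65% to 20.2% counted as moving by less. The occupied share of starts was 33.1% with a window of 5 kb and 32.5% with a peak in either replicate, 8.65% with the peak midpoint inside the window and 10.8% with the higher-scoring peaks, and 16.6% to 31.0% leaving out each ChIP library in turn. The excess of starts over 3' ends was -0.048 points at 5 kb, -0.34 in single-identifier rows and -0.11 in CUFF-only rows, but 2.59 with a peak in either replicate, 3.30 in rows of at least 4 kb and 2.89 in TCONS rows, and 0.87 to 2.68 leaving out each library. The log2 ratio of median FPKM was 0.089 at 2 kb, 0.083 at 5 kb, 0.21 by peak midpoints, 0.17 with either replicate, 0.082 with the higher-scoring peaks, 0.052 with rows of any length, 0.077 from 1 FPKM, 0.17 in single-identifier rows and 0.32 in TCONS rows, and 0.13 to 0.17 leaving out each library. The log2 ratio of median length was -0.095 in rows of at least 1000 bp, -0.27 in rows of at least 4 kb, -0.0031 in single-identifier rows and -0.0017 in TCONS rows, 0.28 by peak midpoints, 0.035 as the median over classes and 0.045 in CUFF-only rows, and 0.13 to 0.24 leaving out each library. The pooled share differed by 7.63 points by midpoints, 6.45 in rows of at least 1000 bp, 11.3 in TCONS rows and 0.85 in CUFF-only rows, and by 3.78 to 5.54 leaving out each library. The causes were not tested. The CUFF, TCONS and chromosome alternatives were chosen after seeing the data. With the replicate number as a block, which pairs the ends within each library, the mean of the within-library differences between starts and 3' ends was 1.78 points. Unknown depth limits what a missing peak means, and sheared fragments of about 1 to 2 kb limit where in the window a peak lies.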
